A study of Mus musculus with 32 samples.

Results

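Ifi203, Ifi204, Ifi207, Ifi209, Ifi211, Ifi213, Mndal and Aim2 are 8 mouse genes of the PYHIN or Ifi200 family, whose proteins sense DNA. They were followed in the spinal cord of 32 mice, as 8 of the 42524 genes of a table of RNA-seq read counts. The 8 genes were chosen by a list of names drawn up with measured values of these same mice in view, so their differences between G93A and WT mice at 155 days are given as a description, with no p-value. The mice fell into 8 groups of 4, WT or G93A, untreated or given OKN-007, at 90 or 155 days of age by the sample labels; the study's text gives the younger age as a few days later. G93A mice carry copies of a mutant human SOD1 gene, which causes amyotrophic lateral sclerosis in people, under the promoter of the human gene, and their motor neurons degenerate as they age. The WT mice were littermates on the same C57BL/6J background. OKN-007, a disulfonyl derivative of the spin trap phenyl-tert-butylnitrone, was given in drinking water. The study describes its experimental mice as predominantly female. It names no dose for the sequenced mice, but its cohorts killed at these ages were given the higher dose it used, for which it reports only females.

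PYHIN proteins combine a pyrin domain, which binds other pyrin domains, with 1 or more HIN domains, which bind double-stranded DNA. In macrophages and microglia, AIM2 joins cytosolic DNA to the adaptor ASC, encoded by Pycard, and so starts an inflammasome that activates caspase-1, the enzyme that matures interleukin-1 and cuts gasdermin D. IFI204, a mouse counterpart of human IFI16, can signal from DNA through STING to type I interferon. MNDAL and IFI203 are mostly nuclear proteins of myeloid and lymphoid cells. Most genes of the family are themselves induced by interferon, through an interferon-stimulated response element in their promoters.

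The 8 genes lie within 592 kb of chromosome 1, from 173350879 to 173942672 of GRCm38, and 6 other family genes with a row in the table (Ifi206, Ifi214, Ifi208, Ifi203-ps, Ifi202b and Ifi205) lie among or beside them. The 120 bases before the start site follow for the members whose levels separated the groups most and for those whose levels did not, so that they can be compared (RefSeq, GRCm38.p6; capitals mark the core of an interferon-stimulated response element, GAAANNGAA on either strand, or the PU.1 site GAGGAAGT; each runs 5′ to 3′ on the strand of the gene).
Ifi207, minus strand, chr1:173741810-173741929: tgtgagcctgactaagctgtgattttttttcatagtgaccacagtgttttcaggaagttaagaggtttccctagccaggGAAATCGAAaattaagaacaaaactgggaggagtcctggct
Ifi211, minus strand, chr1:173913047-173913166: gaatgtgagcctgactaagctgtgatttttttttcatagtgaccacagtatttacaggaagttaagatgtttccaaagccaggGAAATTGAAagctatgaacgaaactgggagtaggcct
Ifi213, minus strand, chr1:173599273-173599392: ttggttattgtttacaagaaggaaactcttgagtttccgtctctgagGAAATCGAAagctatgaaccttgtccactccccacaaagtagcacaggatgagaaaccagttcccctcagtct
Ifi209, plus strand, chr1:173630739-173630858: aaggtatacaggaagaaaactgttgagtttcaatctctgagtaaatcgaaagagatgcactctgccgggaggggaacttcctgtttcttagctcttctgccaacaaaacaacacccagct
Ifi203, minus strand, chr1:173942493-173942612: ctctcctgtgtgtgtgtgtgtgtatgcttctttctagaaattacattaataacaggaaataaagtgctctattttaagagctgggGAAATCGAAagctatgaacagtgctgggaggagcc
Mndal, minus strand, chr1:173880188-173880307: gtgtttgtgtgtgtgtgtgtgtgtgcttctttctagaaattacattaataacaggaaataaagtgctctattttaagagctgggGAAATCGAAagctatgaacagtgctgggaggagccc
Aim2, plus strand, chr1:173420484-173420603: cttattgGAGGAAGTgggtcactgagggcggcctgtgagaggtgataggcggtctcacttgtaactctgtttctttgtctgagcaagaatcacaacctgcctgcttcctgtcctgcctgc
Ifi203 and Mndal each have a further entry, not shown. No entry for Ifi204 was in the table used here. In the full 300 bases (250 before and 50 after the start site), the element core was in 10 of 14 promoter entries of the family and in 8.56% of all 32851 promoters of that length. It began 41 bases before the start site of Ifi207, at -41, and at -37 in Ifi211, -73 in Ifi213, -36 in Mndal and -35 in Ifi203. It was thus found both at genes that were far higher in G93A mice and at genes that were not. In Ifi209 the most similar run of bases began at -79 and differed from the core of Ifi214 by G1T, counted from 1 at the 5′ end of the core. The PU.1 site, in 3.20% of all promoters, was in 1 family entry, that of Aim2, at -113. The interferon-gamma activated site TTCNNNGAA, in 8.30% of all, was in 1 family entry, that of Ifi202b. The 3 motifs did not overlap in any of these entries. A match describes the letters of a window and not a bound site.

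The libraries held 19701722 to 30138257 counted reads each, with a median of 26658755. Levels are given in CPM, counts scaled to a common library size after edgeR's TMM scaling, where 3 counts in the smallest library correspond to 0.152 CPM; that limit covers counting error only. Groups were compared by edgeR's quasi-likelihood test, two-sided, with Benjamini-Hochberg adjustment over all genes tested, and a gene was counted as different at an adjusted p under 0.05. The labels name no batch. At 155 days the 9 caudal Hox genes, which are expressed toward the tail end of the cord, summed to between 227 and 317 CPM in WT mice and to between 59.3 and 202 CPM in G93A mice. Their score was added to the fit as an alternative. As these sums did not overlap between the genotypes, that fit cannot fully separate the Hox level from genotype. What sets the Hox difference was not tested. The G93A mice 12 (untreated) and 15 (OKN-007) had the most Alb, a liver gene, at 155 days. Mice are named here by the number in their label.

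At 155 days Ifi204, Ifi207, Ifi209 and Ifi211 were many-fold higher in G93A mice, Ifi213 and Aim2 were higher by less, and Mndal and Ifi203 did not pass the threshold. Of the 8 members, 6 passed the threshold between untreated G93A and untreated WT mice, all 6 higher. Over all 18675 genes tested, 39.5% passed and 21.3% were higher and passed. The median log2 fold change was 2.29 over the members and 0.000 over all genes tested. Because the members were chosen from this contrast, nothing further is read from these counts.

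**Figure D1:**
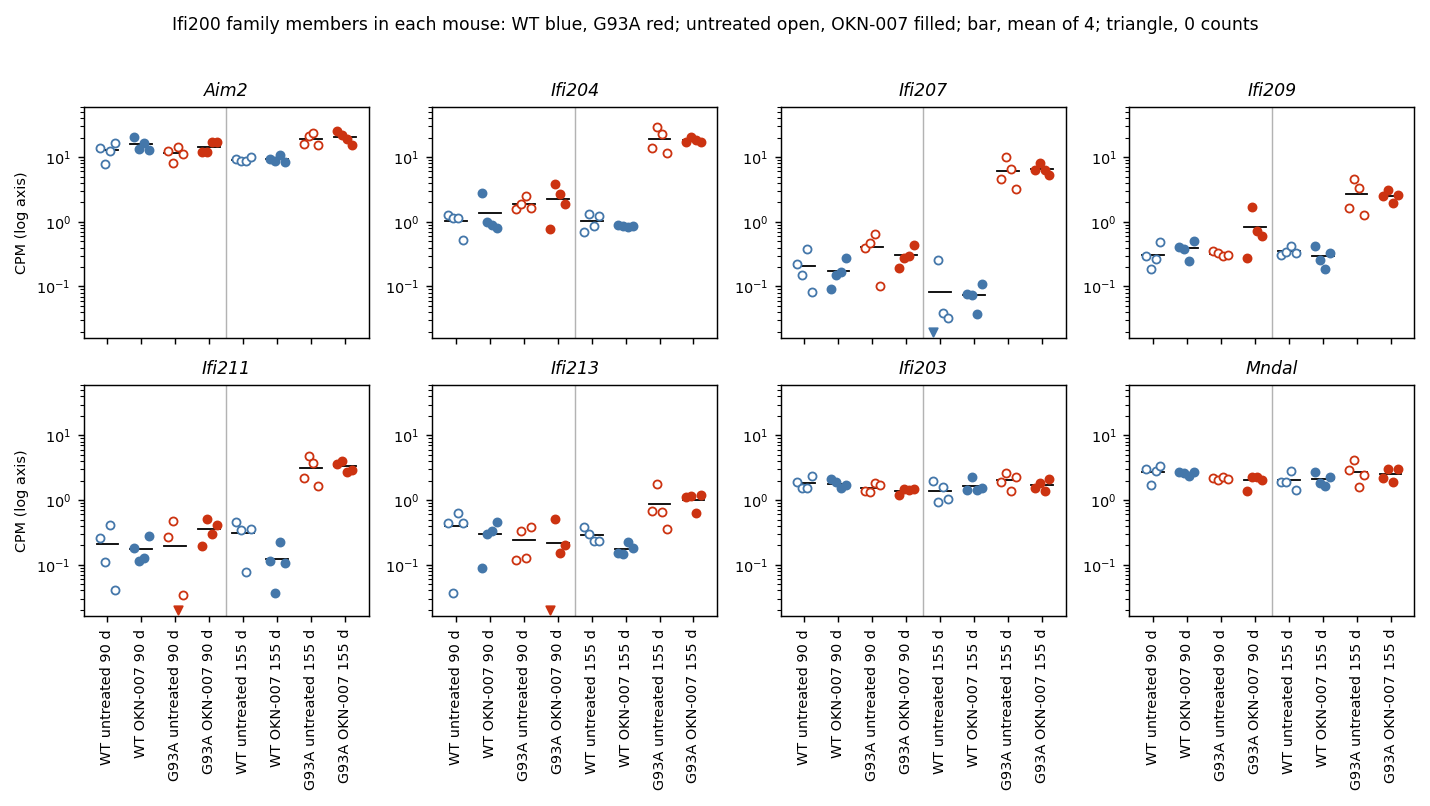
Level of each member in every mouse, in CPM on a log axis, by group (WT blue, G93A red, untreated open, OKN-007 filled, bar for the mean of 4 mice, triangle for 0 counts). Ifi204 lies between 11.4 and 28.9 CPM in the 8 G93A mice at 155 days and at or below 3.79 CPM in every other mouse, while Mndal stays between 1.40 and 4.12 CPM in all 32.

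Ifi204 had the highest level in G93A mice among the members that were many-fold higher. It was counted at 11.4, 13.9, 22.8 and 28.9 CPM in the 4 untreated G93A mice and at 0.685, 0.855, 1.21 and 1.32 CPM in the 4 untreated WT mice. With OKN-007 it lay at 17.1, 17.4, 18.3 and 20.6 CPM in G93A mice and between 0.824 and 0.885 CPM in WT mice. The genotypes did not come near each other in either treatment. The log2 fold change was 4.27 (SE 0.26) in untreated and 4.49 (SE 0.27) in treated mice. Part of its sequence is not its own, since 13.2% of the runs of 75 bases in its transcripts also occur in another gene, mainly Ifi211.

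Ifi207, the neighbour of Ifi204 in the cluster, was at the edge of detection in WT mice and at several CPM in G93A mice. In untreated WT mice it had 0, 1, 1 and 6 counts, and in untreated G93A mice 98, 123, 160 and 240 counts. The means of these mice were 0.0818 ± 0.117 CPM for WT and 6.04 ± 2.89 CPM for G93A (SD, 4 mice each). In treated mice it was at 6.48 ± 1.15 CPM in G93A (SD, n = 4), and the WT mice had 1 to 3 counts each. The fitted log2 fold change was 6.26 (95% interval 5.24 to 7.29) in untreated and 6.43 (95% interval 5.41 to 7.45) in treated mice. With so few WT counts this size is imprecise, and it was 7.77 without the WT mouse 2, which held the 6 counts. With 2.8% of its 75-base runs found in another gene, the count of Ifi207 was little shared.

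Ifi211 and Ifi209 showed the same pattern at lower levels. Ifi211 was at 1.63, 2.17, 3.74 and 4.77 CPM in untreated G93A mice and between 0.0777 and 0.456 CPM in untreated WT mice, and the log2 fold change was 3.32 (SE 0.40). In treated mice its log2 fold change was 4.80 (SE 0.45). Its reads cannot be assigned with confidence, because 63.6% of its 75-base runs recur in another gene, mainly Ifi205. Ifi209 was at 1.27, 1.61, 3.33 and 4.57 CPM in untreated G93A mice and between 0.304 and 0.428 CPM in untreated WT mice (log2 fold change 2.96, SE 0.37), and 23.1% of its 75-base runs recur, mainly in Ifi214.

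Ifi213 was the least separated of the members that passed. It was at 0.358, 0.650, 0.673 and 1.77 CPM in untreated G93A mice and at 0.229, 0.233, 0.298 and 0.380 CPM in untreated WT mice, so that 1 G93A mouse lay within the WT range. The log2 fold change was 1.61 (SE 0.42), and 1.03 without the G93A mouse 10. Adjusted for the caudal Hox score it was 0.69 and no longer passed. In treated mice the genotypes did not overlap, with 0.624 to 1.19 CPM in G93A and 0.148 to 0.225 CPM in WT mice (log2 fold change 2.57, SE 0.44).

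Aim2, the inflammasome sensor and the only one of the 8 at over 5 CPM in every mouse, differed less in ratio but more evenly. It was at 15.2, 15.9, 21.5 and 23.5 CPM in untreated G93A mice and at 8.63, 8.69, 9.24 and 10.1 CPM in untreated WT mice (log2 fold change 1.09, SE 0.15). In treated mice it was between 15.5 and 25.2 CPM in G93A and between 8.49 and 10.6 CPM in WT (log2 fold change 1.20, SE 0.15). The genotypes did not overlap in either treatment. No 75-base run of its transcripts recurs in another gene.

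Mndal and Ifi203 did not pass in either treatment. In untreated mice Mndal averaged 2.76 ± 1.05 CPM for G93A against 2.02 ± 0.586 CPM for WT (SD over 4 mice; log2 fold change 0.49, 95% interval -0.07 to 1.06), and Ifi203 averaged 2.04 ± 0.521 against 1.38 ± 0.472 CPM (log2 fold change 0.61, 95% interval 0.08 to 1.15). In treated mice their log2 fold changes were 0.31 (95% interval -0.25 to 0.87) and 0.12 (95% interval -0.40 to 0.65). Their ranges overlapped in both treatments, and the intervals still allow differences of up to about a log2 unit. Leaving out the G93A mouse 11 brought both past the threshold in untreated mice, at 0.68 for Mndal and 0.76 for Ifi203; without the WT mouse 1, Ifi203 passed at 0.82, and with all 32 mice in 1 fit it passed at 0.60. The 2 genes overlap on the same strand by 37 exonic bases, 1.0% of the exonic bases of Mndal.

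**Figure D2:**
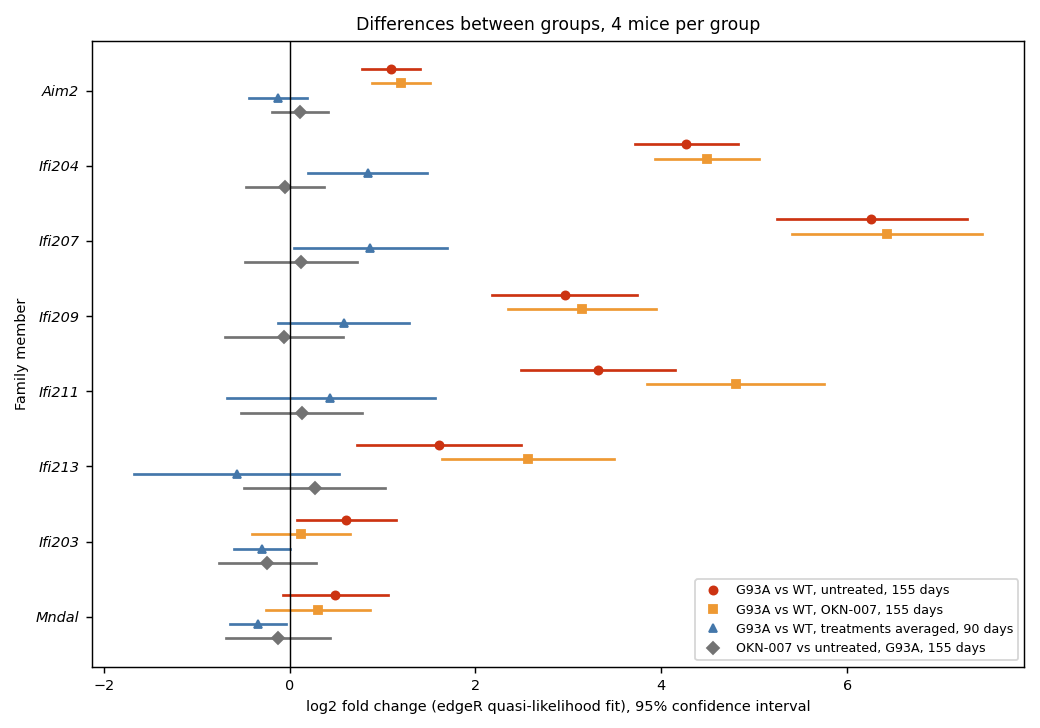
Log2 fold change of each member with its 95% interval in 4 comparisons, 1 of them averaged over both treatments at 90 days. Both comparisons of G93A with WT mice at 155 days lie to the right of 0 for 6 members, from 1.09 for Aim2 to 6.43 for Ifi207, while the comparison of OKN-007 with untreated G93A mice is centred near 0 for all 8.

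In the OKN-007 mice at 155 days 6 of 8 members also passed between G93A and WT, where 41.5% of all genes did. Both comparisons describe the same contrast in different mice, and both were in view when the members were named. Without mice 12 and 15, which had the most Alb, these 6 members had log2 fold changes from 1.19 (Aim2) to 6.48 (Ifi207) in untreated mice. In treated mice the values ran from 1.20 (Aim2) to 6.41 (Ifi207). Ifi204 was at 4.46 in untreated mice in that fit. When the caudal Hox score was added to the fit of all mice, 5 members passed in untreated and 6 in treated mice. Over all genes 5211 and 5556 passed in that fit, against 7378 and 7747 without the score. In untreated mice the log2 fold change with the score in the fit was -0.00 for Mndal (0.49 without it), 0.35 for Ifi203 (0.61 without it) and 4.16 for Ifi204. Because the score differed between the genotypes, these values cannot tell its part from that of genotype.

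The make-up of the family therefore differed between the genotypes at 155 days. Summed over the 8 members, untreated WT mice reached 14.6 ± 0.352 CPM and untreated G93A mice 55.7 ± 18.5 CPM (SD over 4 mice). Aim2 made up 62.7 ± 4.11% of that sum in untreated WT mice and 35.3 ± 5.45% in untreated G93A mice. The share of Ifi204 was 6.99 ± 2.18% and 33.7 ± 3.25%, that of Ifi207 was 0.574 ± 0.831% and 10.5 ± 1.72%, and that of Mndal was 13.9 ± 4.00% and 5.21 ± 1.91%. Levels were also set per kilobase of exons, which adjusts for exon length but not for sequence shared between genes. The rank of Ifi211, with 63.6% of its 75-base runs in another gene, is the least certain. On this scale the order in untreated WT mice was Aim2 (2.62 ± 0.195 CPM per kb), Mndal (0.558 ± 0.162) and Ifi204 (0.286 ± 0.0835), with Ifi207 last (0.0239 ± 0.0342). In untreated G93A mice Aim2 (5.44 ± 1.18 CPM per kb) and Ifi204 (5.40 ± 2.26) overlapped at the top, followed by Ifi207 (1.77 ± 0.846) and Ifi211 (1.72 ± 0.808), which overlapped each other, then Ifi209, which overlapped Ifi211 and Mndal, then Mndal, then Ifi203, which overlapped Ifi213, with Ifi213 last (0.126 ± 0.0909).

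**Figure D3:**
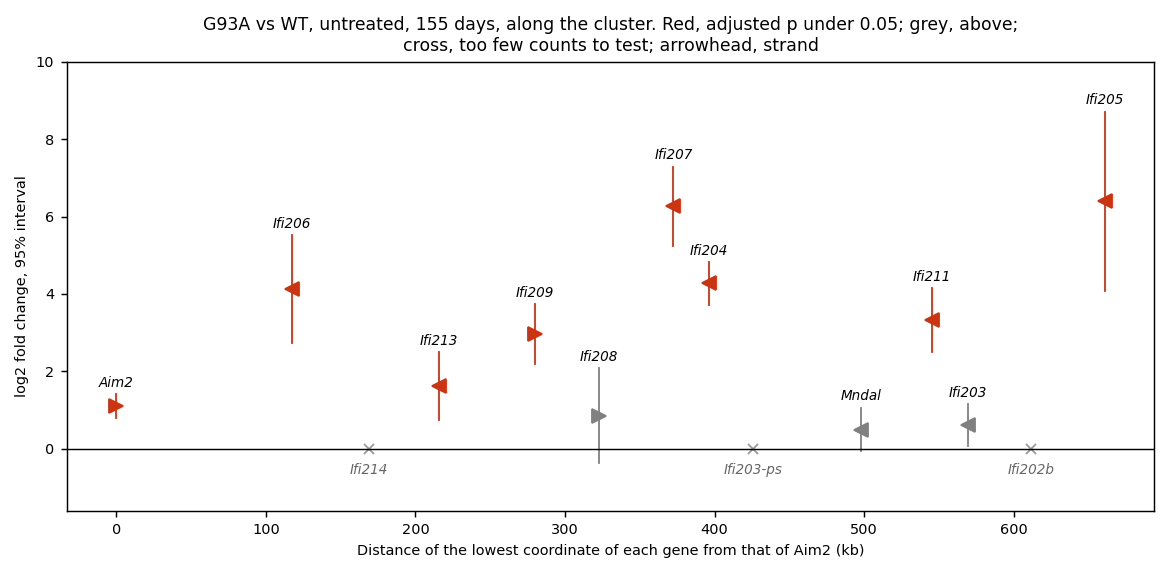
Log2 fold change of the family genes in untreated G93A against WT mice at 155 days, with its 95% interval, against the distance in kb of each gene from Aim2 (red passed the threshold, grey did not, crosses had too few counts to test, arrowheads give the strand). Aim2, Ifi206, Ifi213 and Ifi209 passed. From Ifi208 on, genes that passed and genes that did not are mixed, and Mndal (0.49) and Ifi203 (0.61) lie on either side of Ifi211 (3.32).

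Along the cluster from Aim2, the members Ifi213, Ifi209, Ifi207 and Ifi204 also passed in untreated mice at 155 days. Mndal and Ifi203, which did not pass, lie toward its far end. Ifi211 (log2 fold change 3.32) passed and lies between Mndal and Ifi203, inside the annotated span of Mndal, but its reads cannot be assigned with confidence. An effect of position was not tested. In untreated mice the neighbours Ifi207 and Ifi204 had the largest values among the members, while in treated mice Ifi211 (4.80) lay above Ifi204 (4.49). Of the other family genes, 3 had enough counts to be tested at 155 days and 2 passed. Ifi206 had 14 to 39 counts in untreated G93A mice and 0 to 3 in untreated WT mice (log2 fold change 4.12, 95% interval 2.73 to 5.51). Ifi205 had 3 to 14 counts in untreated G93A mice and 0 in every WT mouse at this age, at least 2.95-fold higher in untreated mice. Ifi208 did not pass (log2 fold change 0.85, SE 0.59). Ifi214 had 2 counts or fewer in every mouse at 155 days, and Ifi202b, which C57BL/6 mice are known to express little, had 4 counts or fewer. The pseudogene Ifi203-ps had between 0 and 13 counts per mouse at 155 days. Of the 10 genes flanking the family on each side, most of them olfactory receptor genes, 1 had enough counts to be tested, Ackr1, a chemokine-binding receptor of venules and red cells, and it was lower in G93A mice (log2 fold change -0.42, adjusted p = 0.00514 by edgeR's quasi-likelihood test).

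At 90 days none of these differences was detectable at the threshold. Between untreated G93A and WT mice, 0 of 8 members passed by edgeR's quasi-likelihood test or by DESeq2, and 1 had an unadjusted p under 0.05; of all 18899 genes tested 0% passed (1126 had an unadjusted p under 0.05, and 11 passed by DESeq2). The member with the unadjusted p was Ifi204, at 1.59, 1.65, 1.87 and 2.54 CPM in G93A mice and at 0.531, 1.13, 1.15 and 1.27 CPM in WT mice. Its groups did not overlap, and its log2 fold change was 0.92 (SE 0.44, adjusted p = 0.822 by edgeR's quasi-likelihood test). Averaged over treated and untreated mice, G93A against WT, 0 members passed by either tool and 4 had an unadjusted p under 0.05, where 0.0265% of all genes passed (5 genes, and 58 by DESeq2) and 1250 of 18899 had an unadjusted p under 0.05. These 4 were Ifi204 (log2 fold change 0.84, SE 0.30) and Ifi207 (0.87, SE 0.39), higher in G93A mice, and Mndal (-0.34, SE 0.14) and Ifi203 (-0.30, SE 0.14), lower, with adjusted p-values from 0.587 to 0.751 by edgeR's quasi-likelihood test. For Aim2 the untreated means at 90 days were 11.4 ± 2.51 CPM (G93A) and 12.7 ± 3.74 CPM (WT; SD over 4 mice; log2 fold change -0.13, 95% interval -0.58 to 0.32).

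The change from 90 to 155 days was also set out as a difference of differences in all 32 mice, which again holds the contrast the members were chosen on and is given without p-values. The G93A against WT difference in untreated mice was larger at 155 days than at 90 days past the threshold in 5 of 8 members, where 21.2% of 19829 genes passed in either direction. On the log2 scale it was larger by 5.34 (SE 0.82) for Ifi207, 3.46 (SE 0.86) for Ifi211, 3.34 (SE 0.53) for Ifi204, 2.86 (SE 0.64) for Ifi209 and 1.20 (SE 0.27) for Aim2. Ifi213 (2.28, SE 0.85), Ifi203 (0.83, SE 0.31) and Mndal (0.78, SE 0.34) did not pass. Ifi213 passed by DESeq2 (2.31), and these 3 passed in some fits that left out 1 mouse, all 8 members passing without the WT mouse 2 at 90 days. The WT level of Aim2 also enters its value, at 12.7 ± 3.74 CPM at 90 and 9.16 ± 0.683 CPM at 155 days. These WT levels overlapped between the ages, and their change did not pass.

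Between 155 and 90 days in untreated WT mice, 0 of 8 members passed by edgeR's quasi-likelihood test or by DESeq2 and 1 had an unadjusted p under 0.05, where 24.9% of all genes passed. The WT mice at 155 days are also the low side of the contrast the members were chosen on, so these values are a description. The ages were compared in different mice, so a difference in dissection or processing cannot be told apart from age. The 1 member was Aim2 (log2 fold change -0.45, SE 0.19), which passed at -0.62 without the WT mouse 2 at 90 days, its lowest value there. Ifi207 had 2, 4, 6 and 10 counts in untreated WT mice at 90 days and 0, 1, 1 and 6 at 155 days, and was kept in the fit by its level in G93A mice. In the same mice Ifi209 had 5 to 12 counts at 90 and 8 to 11 at 155 days. Ifi211 had 1 to 11 and 2 to 12, and Ifi213 had 1 to 17 and 6 to 10. At such counts a change with age may not be detectable.

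No member differed between OKN-007 and untreated mice of the same genotype and age at the threshold. In G93A mice at 155 days 0 of 8 passed by edgeR's quasi-likelihood test or by DESeq2 and 0 had an unadjusted p under 0.05, where 0% of all genes passed (755 had an unadjusted p under 0.05, and 0 passed by DESeq2). Ifi204 averaged 19.2 ± 8.06 CPM without and 18.3 ± 1.56 CPM with OKN-007 (SD over 4 mice), a log2 fold change of -0.05 (95% interval -0.47 to 0.37). Aim2 was at 19.0 ± 4.12 and 20.4 ± 4.08 CPM (log2 fold change 0.11, 95% interval -0.19 to 0.41). The widest interval was that of Ifi213, -0.49 to 1.03 around 0.27. For every member but Ifi213 the interval lay within 1 log2 unit on either side of 0; smaller differences may not be detectable with 4 mice per group.

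In G93A mice at 90 days 0 of 8 members passed by either tool and 1 had an unadjusted p under 0.05, where again 0% of all genes passed (1050 had an unadjusted p under 0.05, and 0 passed by DESeq2). This member was Ifi209, at 0.272, 0.613, 0.714 and 1.70 CPM in treated and between 0.301 and 0.350 CPM in untreated G93A mice (log2 fold change 1.32, SE 0.46, adjusted p = 0.837 by edgeR's quasi-likelihood test). Without the treated mouse 14 its log2 fold change was 0.71. The treated mouse 14, with 43 counts of Ifi209, was also highest of its group for Ifi204, at 3.79 CPM, and for Ifi206, Ifi211 and Ifi213. At 155 days Ifi207, Ifi209, Ifi211 and Ifi213 reached 10 counts in at most 3 of 8 WT mice and entered the fit through the G93A mice, so their WT values are a description. In WT mice 0 of 8 members passed at 155 days, with 1 at an unadjusted p under 0.05, and 0 of 8 at 90 days, with 0 at an unadjusted p under 0.05. DESeq2 gave 0 in both, and 0% of all genes passed in each (549 and 769 had an unadjusted p under 0.05, and 3 and 0 passed by DESeq2). The WT member at 155 days was Ifi211, at 1, 3, 3 and 6 counts in treated and 2, 8, 11 and 12 counts in untreated mice (log2 fold change -1.35, SE 0.59). Ifi213 had 4 to 6 counts in treated and 6 to 10 in untreated WT mice.

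The genotype by treatment interaction asks whether OKN-007 changed the G93A difference. It passed for 0 of 8 members at 155 days, with 1 at an unadjusted p under 0.05, and for 0 of 8 at 90 days, with 0 at an unadjusted p under 0.05, by edgeR's quasi-likelihood test, and DESeq2 gave 0 at both ages. Of all genes 0% passed at each age (437 and 531 had an unadjusted p under 0.05, and 3 and 0 passed by DESeq2). The 1 member was Ifi211 at 155 days (1.48 on the log2 scale, SE 0.66), which rests on those low WT counts and is the difference between its fold changes of 4.80 and 3.32 above. For Ifi204 the interaction was 0.22 (95% interval -0.60 to 1.04) and for Aim2 0.11 (95% interval -0.33 to 0.54).

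All 12 microglial markers were higher in untreated G93A mice at 155 days. Summed, the 12 markers were between 389 and 468 CPM in untreated WT and between 1580 and 2750 CPM in untreated G93A mice. Aif1, which encodes Iba1, had a log2 fold change of 2.70 (SE 0.20), Csf1r, the receptor for the growth factor that microglia depend on, 1.89 (SE 0.11), and Cx3cr1, the fractalkine receptor, 2.08 (SE 0.17), while the homeostatic markers Tmem119 and P2ry12 had 0.65 (SE 0.12) and 0.39 (SE 0.13). The part of the microglial level in the levels of the family was not tested. In bulk tissue more cells of a type and more RNA per cell cannot be told apart. At 90 days the same sum was between 465 and 535 CPM in untreated WT and between 465 and 697 CPM in untreated G93A mice.

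Set against that sum, the members did not move alike. Per 1000 CPM of microglial markers, Ifi204 averaged 2.32 ± 0.765 CPM for untreated WT against 8.65 ± 1.84 CPM for untreated G93A mice at 155 days (SD over 4 mice), and Ifi207 averaged 0.178 ± 0.248 against 2.71 ± 0.813 CPM, both without overlap. Ifi211, at 0.708 ± 0.379 and 1.37 ± 0.362 CPM, was higher in every G93A than in every WT mouse, while Ifi209 overlapped at 0.790 ± 0.110 and 1.18 ± 0.446 CPM. Ifi213, at 0.642 ± 0.145 and 0.384 ± 0.219 CPM, was lower on average with overlap. Aim2 was lower relative to the markers, at 20.9 ± 3.51 in WT and 8.88 ± 0.518 CPM in G93A mice, and so were Mndal (4.52 ± 1.07 and 1.34 ± 0.510 CPM) and Ifi203 (3.10 ± 0.985 and 1.01 ± 0.386 CPM), all 3 without overlap. The treated mice gave 2.17 ± 0.200 and 8.72 ± 0.948 CPM for Ifi204 and 23.6 ± 1.80 and 9.58 ± 1.12 CPM for Aim2. These ratios describe the same contrast and were not tested.

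**Figure D4:**
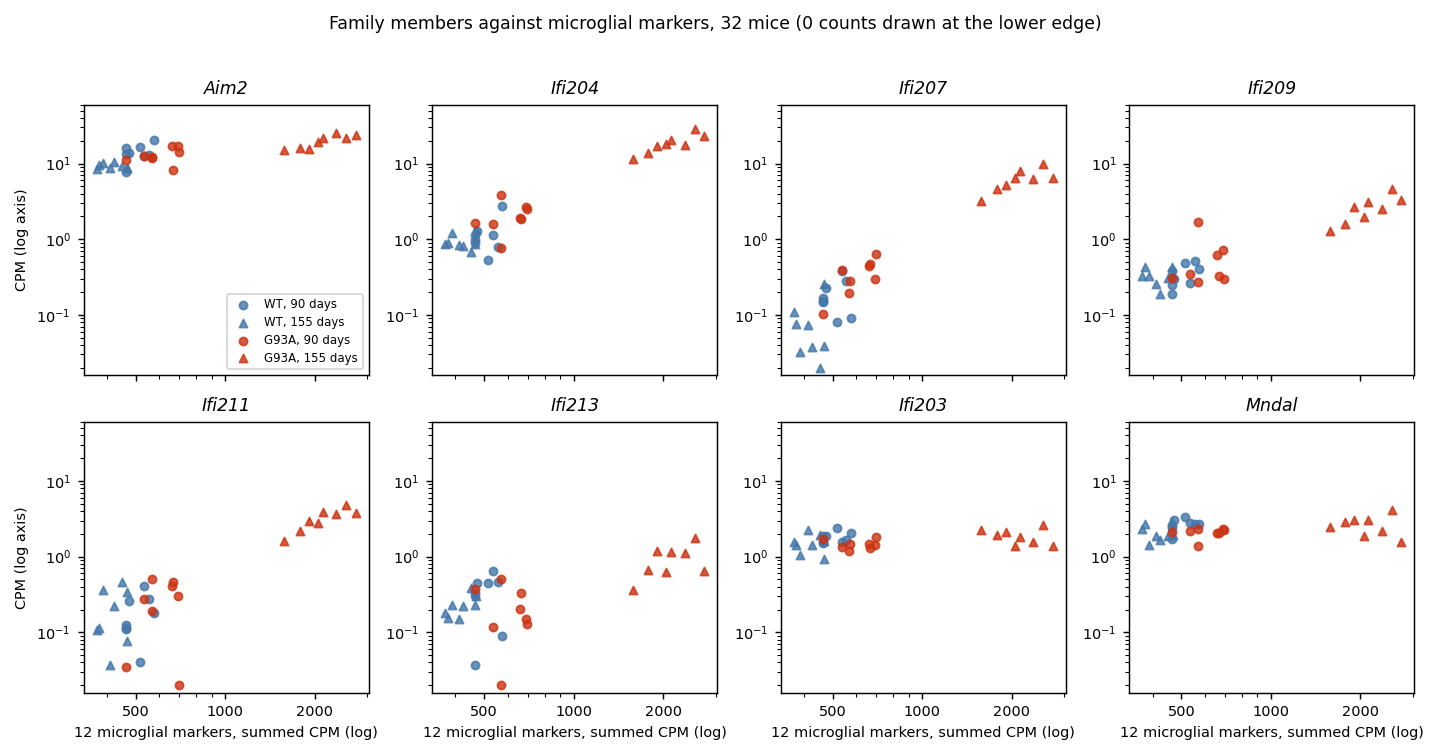
Level of each member (CPM, log axis) against the summed level of 12 microglial markers (CPM, log axis) in the 32 mice, WT blue and G93A red, circles at 90 and triangles at 155 days. The 8 G93A mice at 155 days form a separate cloud at 1580 CPM of markers or more, where Ifi204 and Ifi207 lie far above their values elsewhere and Mndal and Ifi203 do not.

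Markers of most other immune cells were low in sum. The 8 markers of border and infiltrating macrophages summed to between 3.66 and 4.64 CPM in untreated WT and between 6.67 and 11.3 CPM in untreated G93A mice at 155 days, all 8 of them with reads in at least 1 mouse of both groups, with 2 of 6 tested passing, Ms4a7 (log2 fold change 5.25, SE 0.53) and Pf4 (1.39, SE 0.40). The 11 T and NK cell markers summed to between 2.13 and 3.77 and between 4.23 and 5.43 CPM, with Cd3g (2.36, SE 0.43) and Cd8a (2.61, SE 0.64) passing among 3 tested. Neutrophil markers stayed at or below 1.44 CPM and B cell markers at or below 0.650 CPM in sum in these groups. The 5 genes of the dendritic cell list summed to between 32.3 and 35.7 CPM in untreated WT mice at 155 days. In untreated G93A mice they summed to between 18.4 and 26.6 CPM. Of these 5, 2 were tested and both were lower, Flt3 (-0.59, SE 0.15) and Zbtb46 (-0.45, SE 0.15). Flt3 averaged 25.6 CPM and Zbtb46 8.73 CPM in the untreated WT mice. Which cells these 2 transcripts came from was not tested. Of the other cell classes, 6 of 6 astrocyte genes were higher (Aqp4 1.28, SE 0.11), 4 of 4 neuronal genes lower (Snap25 -0.66, SE 0.13), 4 of 5 motor neuron genes lower (Mnx1 -1.29, SE 0.17), 1 of 4 oligodendrocyte genes higher (Mag 0.25, SE 0.07) and 0 of 6 endothelial genes different. The part of each cell type in the levels of the family was not tested.

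Of 12 inflammasome genes, which include the partners of AIM2 and other sensors, 11 were tested at 155 days and 8 passed between the untreated genotypes, each of them higher in G93A, with a median log2 fold change of 1.75 against 0.000 over all genes, of which 39.5% passed and 21.3% were higher and passed; the same shares stand beside the lists that follow. Pycard, which encodes the adaptor ASC, averaged 8.78 ± 2.09 CPM (G93A) against 1.30 ± 0.419 CPM (WT; SD over 4 mice; log2 fold change 2.80, SE 0.22). Casp4, which senses lipopolysaccharide, had 2.33 (SE 0.29), Nlrp3, another inflammasome sensor, 2.23 (SE 0.22), and Il1b, a substrate of caspase-1, 3.05 (SE 0.49) from 0.0906 ± 0.0689 to 0.786 ± 0.265 CPM. Il18, the other cytokine that caspase-1 matures, had a log2 fold change of 0.10 (SE 0.09) and did not pass. In treated mice 8 of 11 passed as well, all higher, and at 90 days 0 of 10 passed. The gene lists, like the members, were chosen with earlier results of these data known. Their counts at 155 days are therefore a description, here and in the lists that follow.

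The list of DNA sensing and STING genes is not 1 pathway and includes, for example, the endosomal receptor gene Tlr9. Of its 16 genes tested, 13 passed in untreated mice at 155 days, 10 higher and 3 lower, with a median log2 fold change of 0.47. Those with the largest changes were Zbp1, a sensor of Z-form nucleic acids (3.63, SE 0.50), Unc93b1, which carries Toll-like receptors to endosomes (2.19, SE 0.13), Tlr9, the receptor for unmethylated DNA (2.14, SE 0.27), and Dnase2a, the lysosomal DNA nuclease (2.04, SE 0.16). Cgas, the cytosolic sensor, had 0.97 (SE 0.22) and Tmem173, which encodes STING, 1.70 (SE 0.16). The 3 lower genes were Tbk1, the kinase downstream of STING (-0.19, SE 0.07), Adar, the RNA-editing enzyme (-0.38, SE 0.09), and Enpp1, which degrades the messenger made by cGAS (-0.62, SE 0.14).

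Genes of interferon signalling and its targets were mostly higher too. Of 16 signalling genes, 13 were higher and 1 lower (Jak1, -0.35, SE 0.09), led by Irf8, a factor of myeloid cells (3.26, SE 0.20), Irf5 (2.54, SE 0.16), Usp18, a brake on the receptor (2.36, SE 0.28), and Irf7 (2.28, SE 0.22). Of 29 interferon-stimulated genes, 27 were higher and 1 lower (Cmpk2, -0.23, SE 0.09), with a median of 1.91, led by the chemokine gene Cxcl10 (5.11, SE 0.50), Mx1 (3.68, SE 0.44), Ifi27l2a (3.18, SE 0.40) and Bst2 (3.06, SE 0.21). In treated mice 14 and 28 were higher, and at 90 days, averaged over treatments, 0 of 16 and 0 of 28 passed by edgeR's quasi-likelihood test. Comparing OKN-007 with no treatment in G93A mice at 155 days, 0 genes of these 4 lists passed.

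Mice of one group differed from each other in a way that most members shared. Among the untreated G93A mice at 155 days, mouse 10 was highest and mouse 12 lowest for Ifi204, Ifi207, Ifi209, Ifi211 and Ifi213. Mouse 12 also had the lowest microglial sum of its group, 1580 CPM, and the most Alb. With the means of the 8 groups removed, the Pearson correlation of log2(CPM + 1) between members over the 32 mice was highest for Ifi207 with Ifi211 (0.76), Ifi209 with Ifi213 (0.72), and Ifi204 and Ifi211 with Ifi209 (0.69 each). Mndal correlated with Ifi213 (0.58) and Ifi203 (0.57) and little with Ifi204 (0.20), and Ifi203 did not follow Ifi204 (0.01). Over the 16 mice at 155 days, Ifi204, Ifi207, Ifi209 and Ifi211 correlated with each other at 0.85 to 0.94, Aim2 with them at 0.56 to 0.76, and Aim2 with Mndal at -0.31 and with Ifi203 at -0.36. These values describe mice that share a dissection and a library each, and Ifi211 also shares sequence with other members. With a pseudocount of 0.1 in place of 1, Ifi207 with Ifi211 was at 0.41 and Ifi203 with Mndal at 0.57.

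**Figure D5:**
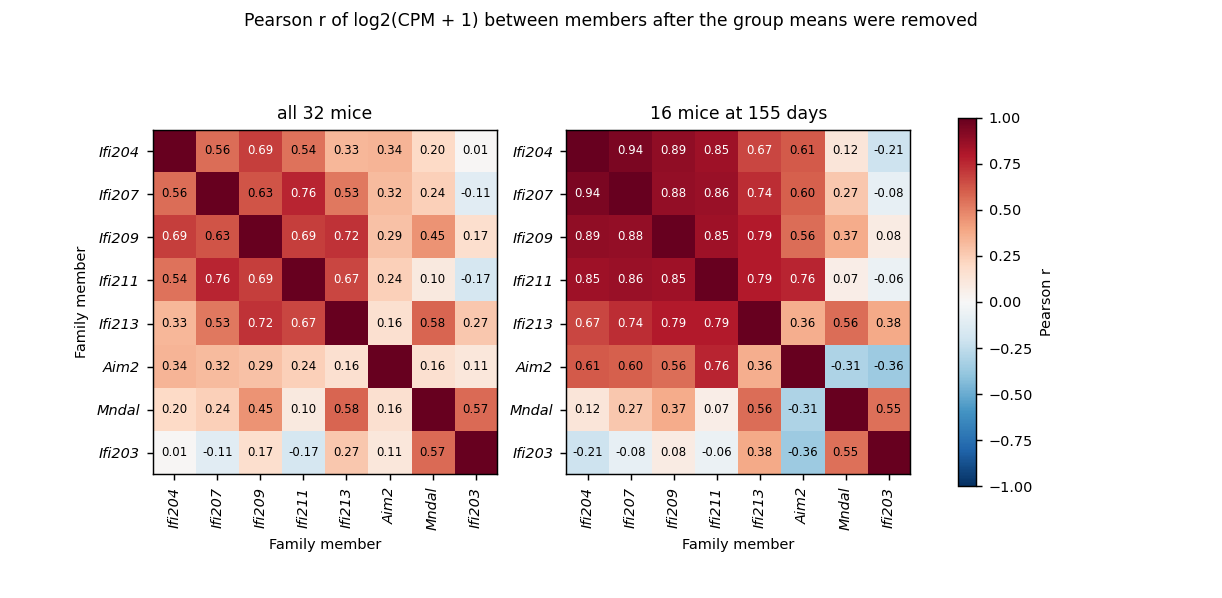
Pearson correlation of log2(CPM + 1) between members after the group means were removed, over all 32 mice (left) and over the 16 mice at 155 days (right), from -1 (blue) to 1 (red). On the right, Ifi204, Ifi207, Ifi209 and Ifi211 form a block at 0.85 to 0.94, and Mndal and Ifi203 correlate with each other at 0.55.

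Among the 15520 genes with a mean of at least 1 CPM outside the family, those that followed the mean of the members most closely within groups included Sp100, a nuclear body protein (0.83), Gbp3, a guanylate-binding protein (0.81), Tor3a (0.80) and Oasl2, of the oligoadenylate synthase family (0.80), each over 32 mice. With a pseudocount of 0.1 they included Irgm2 (0.85), Ifit3 (0.84), Gm20559 (0.82) and Ifit3b (0.80), and over the 16 mice at 155 days the first 5 were Slfn9, Gm20559, Mx1, Pdcd1 and Slc44a3, at 0.89 to 0.92. The genes named thus depended on the scale and on the mice used.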

How the data were processed

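Total RNA from spinal cord of 32 mice was sequenced after poly(A) selection with a stranded kit. The authors deposited 1 table of raw read counts per gene and mouse, with all replicates separate. The study's methods name Trimmomatic, STAR, HTSeq, GENCODE M10 and GRCm38, whereas the submitters' processing notes list FastQC, STAR, featureCounts, edgeR and the builds GRCm39, mm39 and hg38. The table holds 1306 gene IDs above the highest of GENCODE M21, so the annotation used for counting is uncertain. Of the 42524 IDs, 41203 (96.9%) were paired with a symbol through GENCODE M21, whose GRCm38 coordinates are printed. The human SOD1 transgene has no row and was not analysed here.

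Counts were tested with edgeR 4.0.16 in R 4.3.3 (filterByExpr, TMM, glmQLFit and glmQLFTest), with the 16 mice of an age in 1 fit and all 32 mice for comparisons across ages. The members and gene lists were chosen with earlier results of these data known. Named were the members, the other family genes with a row, up to 4 genes per list with the largest change past the threshold between untreated genotypes at 155 days, 5 microglial markers, genes among the 5 most like the members, and flanking genes past the threshold; Cgas, Tmem173, Il18, Jak1, Cmpk2, Tbk1, Adar and Enpp1 were named after their values were seen. DESeq2 1.42.0, another normalization, no filter, 1 fit of all mice, the caudal Hox score, a replicate block and leaving out each mouse were tried as alternatives. No 2 libraries were identical. The p-values rest on the spread between mice within groups, estimated over all groups of a fit together. The scripts were tested on simulated data. Numbers in the labels did not pair mice of the 2 ages: over 16 same-numbered pairs the deviations correlated at -0.22 to 0.26, with 3 over 0.1. An item that the naming rule selects is not reported here.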

Additional observations from a re-analysis of the deposited data

Results flagged for a closer look

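In 9 of 89 groups of 4 mice checked, 1 mouse lay far from the other 3 by Dixon's criterion, where chance gives about 4.45. Among the members these were Ifi203 in the G93A OKN-007 mouse 13 at 90 days (1.20 CPM, next 1.43 CPM) and the WT OKN-007 mouse 6 at 155 days (2.26 CPM, next 1.55 CPM), and Ifi204 in the WT OKN-007 mouse 5 at 90 days (2.76 CPM, next 0.980 CPM). Ifi207 stood apart in the untreated WT mouse 2 at 155 days (0.255 CPM, next 0.0389 CPM), and Ifi213 in the G93A OKN-007 mouse 15 at 155 days (0.624 CPM, next 1.11 CPM). Among the other family genes, Ifi203-ps stood apart in the untreated WT mouse 4 at 90 days (0.939 CPM, next 0.186 CPM) and the WT OKN-007 mouse 6 at 155 days (0.481 CPM, next 0.288 CPM). Ifi205 did so in the untreated G93A mouse 11 at 90 days (0.172 CPM, next 0.00 CPM), and Ifi208 in the untreated G93A mouse 11 at 155 days (0.284 CPM, next 0.453 CPM).

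The untreated G93A against WT difference was larger at 155 than at 90 days for Ifi207 (by 5.34 on the log2 scale), Ifi211 (3.46), Ifi204 (3.34), Ifi209 (2.86) and Aim2 (1.20). These members were chosen with this contrast in view.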

How the results depend on the processing

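No member past the threshold changed direction under any alternative run; 31 of 96 member values changed sign in some alternative, in 68 of 1999 refits, and none of those 31 had passed. Leaving out each mouse in turn gave 6 to 8 members in untreated and 6 in treated mice at 155 days, 5 to 8 for the difference between ages, 0 to 1 for the age of WT mice and 0 in every other comparison. At 155 days the 8 arose without the untreated G93A mouse 11, and for the difference between ages without the untreated WT mouse 2 at 90 days; the 1 arose without that WT mouse (Aim2) or without the untreated WT mouse 2 at 155 days (Ifi207). With the replicate number as a block, 5 members passed for the difference between ages and 0 for the age of WT mice, the 2 comparisons it was run for, and over all genes 3334 and 3811 passed against 4211 and 4933. Over all genes, counts moved by more than 1.5 times only where few or none passed: without the filter 39 genes passed between untreated genotypes at 90 days, 110 averaged over treatments, 17, 8, 10 and 14 for OKN-007 (G93A at 155 and 90 days, WT at 155 and 90 days) and 8 and 3 for the interactions; DESeq2 gave 11 and 58 at 90 days, 3 for OKN-007 in WT at 155 days and 3 for the interaction at 155 days; 1 fit of all 32 mice gave 1 and 21 at 90 days, 2 for OKN-007 in WT at 155 days and 1 for the interaction there. The cause was not tested. Leaving out the 2 mice with the most Alb was chosen after seeing the data. Members under about 10 counts in WT mice have imprecise fold changes.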
